A study of Mus musculus with 4 samples.

Results

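Among 2472353 bins of 1 kb that tile chromosomes 1 to 19 of the mouse genome (build NCBIM37, mm9), 3257 bins carried acetylation of lysine 14 of histone H3 (H3K14ac) by one antibody and little acetylation of lysine 9 (H3K9ac). They were chosen by their counts of sequenced fragment ends (tags) in 3 ChIP-seq libraries. A bin was kept when it held at least 25 tags of the 13HH3 antibody against H3K14ac, at most 12 tags of H3K9ac and at most 10 tags of input DNA. A second antibody against H3K14ac, 7G8, took no part in the choice and serves as the check. All 4 libraries came from untreated mouse embryonic stem (mES) cells, labelled as line E14 of strain 129P2/OlaHsd at passage 25 to 30, although the study's methods speak of a wild type line made from blastocysts. The antibody against H3K9ac was the rabbit polyclonal AB4441, both antibodies against H3K14ac were mouse monoclonals, and input was chromatin DNA without antibody. Each had 1 library, so there was no replicate check and no test between libraries was possible. The libraries held 23183487 tags (H3K9ac), 22365676 tags (13HH3, of which 21627057 were kept at 1 tag per position and strand), 23839094 tags (7G8) and 19313927 tags (input).

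Acetylation neutralises the positive charge of the lysine and is read by bromodomain proteins. Lysine 14 of H3 is acetylated by GCN5 and PCAF, the catalytic subunits of the SAGA and ATAC complexes, and by other acetyltransferases, and GCN5 and PCAF are also the main enzymes for lysine 9. Both marks are best known from the starts of active genes and from enhancers.

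The stretches below show what such sites look like. Each is 200 bases long, the window of the bin that held the most 13HH3 tags, printed 5′ to 3′ from the forward strand of NCBIM37 with every CpG in capitals. The first 5 come from the bins with the most 13HH3 or 7G8 tags whose 7G8 density was at least 2-fold over input, and the last 3 from those with the most 13HH3 tags whose 7G8 count did not exceed the input, scaled to the depth of 7G8, by more than 1 tag. They are named by the nearest gene.
Cadm1 (chr9:46898760-46898959): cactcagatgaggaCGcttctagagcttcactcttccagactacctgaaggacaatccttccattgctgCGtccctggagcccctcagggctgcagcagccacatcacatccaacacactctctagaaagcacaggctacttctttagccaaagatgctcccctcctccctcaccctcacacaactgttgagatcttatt
Filip1l (chr16:57434679-57434878): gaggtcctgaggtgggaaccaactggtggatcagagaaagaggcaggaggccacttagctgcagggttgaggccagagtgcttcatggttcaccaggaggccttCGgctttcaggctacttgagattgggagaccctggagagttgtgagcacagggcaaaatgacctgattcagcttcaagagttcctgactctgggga
Frmd6 (chr12:71955304-71955503): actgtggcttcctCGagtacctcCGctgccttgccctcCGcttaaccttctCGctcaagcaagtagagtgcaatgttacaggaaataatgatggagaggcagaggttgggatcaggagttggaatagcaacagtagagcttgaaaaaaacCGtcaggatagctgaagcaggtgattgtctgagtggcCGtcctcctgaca
Fam49a (chr12:12308394-12308593): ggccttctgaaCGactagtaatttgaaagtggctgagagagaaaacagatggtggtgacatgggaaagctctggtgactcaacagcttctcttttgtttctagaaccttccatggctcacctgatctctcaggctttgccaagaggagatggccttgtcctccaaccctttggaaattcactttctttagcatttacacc
Tmco5 (chr2:116386789-116386988): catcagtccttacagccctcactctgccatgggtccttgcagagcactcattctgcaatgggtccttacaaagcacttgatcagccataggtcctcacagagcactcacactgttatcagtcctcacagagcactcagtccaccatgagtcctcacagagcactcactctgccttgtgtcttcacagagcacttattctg
Nrn1 (chr13:36537210-36537409): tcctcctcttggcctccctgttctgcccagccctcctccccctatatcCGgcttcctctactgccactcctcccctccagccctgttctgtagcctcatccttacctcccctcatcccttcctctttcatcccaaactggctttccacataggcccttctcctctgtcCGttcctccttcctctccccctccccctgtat
Wisp1 (chr15:66709777-66709976): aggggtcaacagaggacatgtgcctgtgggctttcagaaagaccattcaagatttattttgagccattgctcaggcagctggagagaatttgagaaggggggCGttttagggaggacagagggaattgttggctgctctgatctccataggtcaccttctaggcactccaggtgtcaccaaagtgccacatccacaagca
Mgat5 (chr1:129168574-129168773): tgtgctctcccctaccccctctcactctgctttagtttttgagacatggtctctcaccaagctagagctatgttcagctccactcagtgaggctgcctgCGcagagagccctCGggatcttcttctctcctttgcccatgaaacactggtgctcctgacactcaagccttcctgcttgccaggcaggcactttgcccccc
The 8 stretches had a GC content of 46% to 59% and held between 0 and 6 CpGs. The Tmco5 stretch had no CpG, and the Frmd6 stretch had the most. The Nrn1 stretch, which 7G8 did not show, was the richest in GC. It held 18 tags of 13HH3 and 1 tag of 7G8.

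The 13HH3 count that selected the members had a median of 27 tags and reached 49 tags per bin. Most members lay close to the minimum, since 2564 of them (78.7%) held 25 to 29 tags and 856 (26.3%) held exactly 25. Their H3K9ac counts ran from 0 to 12 with a mean of 9.55 tags. Few were empty of H3K9ac tags, and 343 members held 6 or fewer. Exactly at the H3K9ac maximum of 12 tags lay 715 members (22%). The mean of the members was near the 9.86 tags over all bins with a tag, where the SD was 11.9. The median was 10 tags in the members and 7 tags in all bins with a tag. All bins within the same limits of H3K9ac and input, and with at least 1 input tag, held a mean of 5.21 H3K9ac tags. Per 10000000 tags of each library, H3K9ac in the members was 1.01 times the input and 13HH3 was 3.15 times the input. These values follow from the limits and are given as a description. Just below the 13HH3 minimum lay 12030 bins with 20 to 24 tags, and just above the H3K9ac maximum lay 2297 bins with 13 to 15 tags. A further 2433 bins met the first 2 limits but had 11 to 13 input tags. Without the input limit the members would have been part of a larger group, as 7014 bins met the other limits with more than 10 input tags. At any input, 98484 bins held 25 or more 13HH3 tags and 88213 of these had more than 12 H3K9ac tags. With at most 10 input tags, 23867 bins met the 13HH3 minimum and had more than 12 H3K9ac tags, beside the 3257 members.

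The 7G8 library, which the choice did not use, also gave more tags in the members than in other bins with little H3K9ac. The members held 16.4 7G8 tags per bin (95% exact Poisson interval of the mean 16.2 to 16.5, SD over bins 5.15, n = 3257), with quartiles of 13 and 19 tags and extremes of 3 and 40. All bins within the same limits of H3K9ac and input, and with at least 1 input tag, held 7.83 7G8 tags (SD 4.48, n = 1367618). Many of these bins are poorly covered in every library, since their mean input was 5.51 tags against 7.88 in the members. A closer comparison was therefore made among bins with 8 to 12 H3K9ac tags and 6 to 10 input tags, here called the comparison class. This class was set after the data were seen. It held 2333 of the members, with 16.7 7G8 tags (16.5 to 16.9, SD 5.26), and 219262 other bins, with 10.7 7G8 tags (10.7 to 10.7, SD 4.41). The ratio of the means was 1.56, and the mean input was 8.43 tags in the members and 7.96 in the others. Intervals here and elsewhere cover counting error only, and neighbouring bins of 1 library are not replicates.

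Bins with both marks, defined by at least 25 13HH3 tags, more than 12 H3K9ac tags and at most 10 input tags (n = 23867), held 22.8 7G8 tags (22.8 to 22.9, SD 8.75), so that the members reached 0.717 of their 7G8 level. The 13HH3 mean was also lower in the members, at 27.8 tags against 31.4. Relative to input and per 10000000 tags, 7G8 stood at 1.68 in the members, 1.09 in the other bins of the comparison class and 2.37 in the bins with both marks. Over the whole of chromosomes 1 to 19 this ratio was 1.01. The bins next to the limits gave 7G8 means on either side of that of the members. They were 14.4 tags in the bins with 20 to 24 13HH3 tags, 17.5 tags in those with 13 to 15 H3K9ac tags and 16.8 tags in those with 11 to 13 input tags.

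No step marked the limit of 25 tags, because 7G8 rose gradually with 13HH3 on both sides of it. Within the comparison class the mean 7G8 count was 8.19 tags in bins with 0 to 4 13HH3 tags, 11.5 tags with 10 to 14, 14.9 tags with 20 to 24, 16.4 tags with 25 to 29 and 19.2 tags with 35 to 39. Over the same classes the mean input rose from 7.6 to 8.57 tags and the mean H3K9ac from 9.34 to 10.5 tags. GC content rose as well, from 38.7% to 48.8%, and the part of GC content in this gradient is described further on. Among the members alone the 2 antibodies were only weakly related from bin to bin (Pearson r = 0.158, Spearman rho = 0.139, n = 3257 bins that share the libraries and a narrow range of 13HH3), against r = 0.396 over the whole comparison class (n = 221595 bins).

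**Figure D1:**
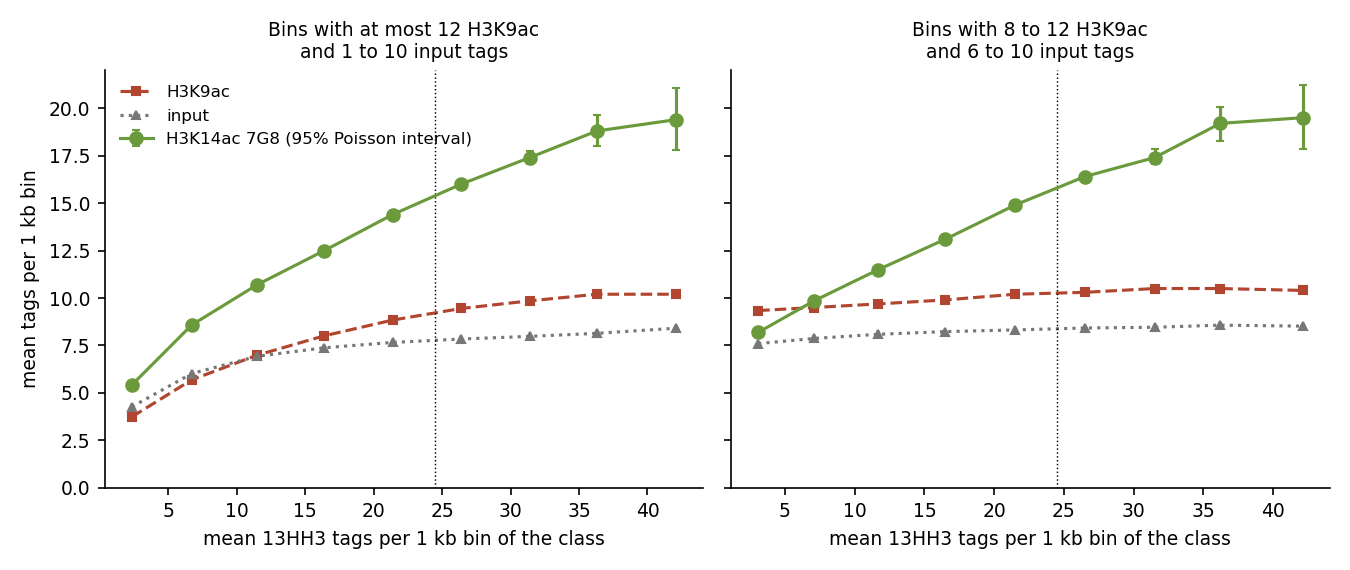
Mean tags of 7G8, H3K9ac and input per 1 kb bin (vertical axes) against the mean 13HH3 tags of classes of bins (horizontal axes), for all bins within the H3K9ac and input limits and with at least 1 input tag (left) and for the comparison class (right). Bars on 7G8 are 95% exact Poisson intervals and the dotted line is the limit of 25 tags. In the comparison class 7G8 climbed from 8.19 to 19.2 tags between the classes with 0 to 4 and 35 to 39 13HH3 tags, while H3K9ac and input moved by about 1 tag.

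Called bin by bin, the share of members that 7G8 showed moved with the fold, the pseudocount and the input limit. With a pseudocount of 1 tag per 10000000, 671 of the 3257 members (20.6%, exact binomial interval 19.2 to 22) had a 7G8 density at least 2-fold over input, beside 8.4% of all bins within the limits. The share of all members was 50.5% at 1.5-fold, 3.25% at 3-fold and 12.7% with a pseudocount of 2. It was 44.6% with an input maximum of 7 tags and 34.5% with limits per 10000000 tags, settings that choose other members and for which no share of other bins was computed. In the comparison class the 2-fold share was 14.3% of the members (333 of 2333) and 1.93% of the other bins. At 1.5-fold these shares were 46% and 13.1%, and at 3-fold 0.729% and 0.0237%. Low input was a condition of the choice, and the 2-fold share depended strongly on it. Of the 2433 bins just above the input maximum, with 11 to 13 input tags, only 15 (0.617%) reached 2-fold. Their mean of 16.8 7G8 tags was nevertheless close to the 16.4 tags of the members. The 7G8 count alone was therefore used as a further call. At least 20 7G8 tags were found in 808 members (24.8%, 23.3 to 26.3), beside 1.2% of all bins within the limits. In the comparison class 27.1% of the members and 3.46% of the other bins reached it, and so did 28.4% of the bins just above the input maximum. The bins with both marks met the 2 calls in 49.0% and 61.1%. At the other end, 7G8 did not exceed the input, scaled to the same depth, by more than 1 tag in 509 members (15.6%, 14.4 to 16.9), beside 52.9% of all bins within the limits. This held for 17.4% of the members and 54.3% of the other bins in the comparison class.

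The 7G8 count rose with H3K9ac among the members, as it did over all bins within the limits (Pearson r = 0.115 over the 3257 members and 0.431 over those 1367618 bins). Over those 1367618 bins 7G8 followed input as closely (r = 0.433). In the comparison class r between H3K9ac and 7G8 was 0.0875. The 86 members with 0 to 4 H3K9ac tags held 14.6 7G8 tags (13.8 to 15.4), against 7.83 7G8 tags in all bins within the limits. Of these 86 members 11.6% (5.72 to 20.4) were at least 2-fold over input. The share of all bins within the limits, 8.4%, lies in that interval, but those bins had a lower mean input, 5.51 tags. The other bins of the comparison class, with 6 to 10 input tags but more H3K9ac, gave 1.93%. The 824 members with 5 to 8 H3K9ac tags held 15.8 tags, and the 2347 members with 9 to 12 held 16.6 tags (16.5 to 16.8), of which 21.7% (20 to 23.4) were at least 2-fold over input. The mean 13HH3 counts of the lowest and highest of these classes were 27.2 and 27.9 tags and their mean input 7.83 and 7.89 tags. The intervals of these 2 classes did not overlap in 7G8.

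In the members 13HH3 and 7G8 both stood above the flanks. Per 100 bp and 10000000 tags, the 7G8 density was 0.687 in the bin, 0.574 in the 2 adjacent bins and 0.531 at a distance of 4 to 5 kb, so that the centre was 1.29 times and the adjacent bins 1.08 times the far flank. Input in the adjacent bins was 1.05 times its far flank (0.505 against 0.483). In the bins with both marks the centre was 1.59 times the far flank, and in the other bins of the comparison class 1.01 times. The 13HH3 density, which fixed the centre, fell from 1.28 to 0.724 in the adjacent bins and 0.626 far out. At 4 to 5 kb every library was higher around members than around the other comparison bins, with 0.626 against 0.457 for 13HH3, 0.531 against 0.444 for 7G8, 0.476 against 0.432 for H3K9ac and 0.483 against 0.431 for input. H3K9ac and input were lower in the bin than next to it, which the limits on both of them bring about.

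**Figure D2:**
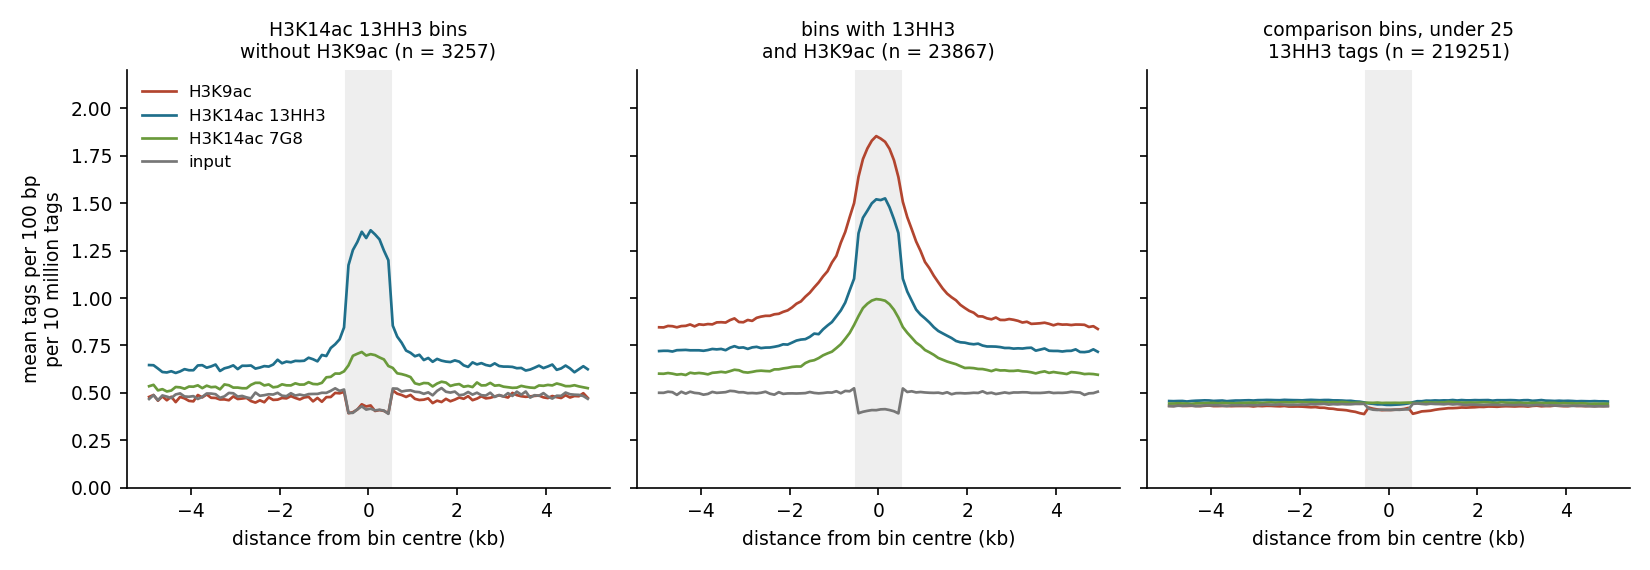
Mean tags per 100 bp and 10000000 tags of each library (vertical axis) against the distance from the bin centre in kb (horizontal axis), around the 3257 members, the bins with both marks and the other bins of the comparison class. The shaded band is the bin itself, where 13HH3, H3K9ac and input were used in the choice. Of the lines in the left panel 7G8 is the one not used, and it stands at 0.687 in the bin and 0.531 at 4 to 5 kb.

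Within the bins, the 200 bases with the most 13HH3 tags were on average also denser in the other libraries than the rest of the bin. In the members 7G8 was at 2.22 tags per 100 bp in these stretches (2.18 to 2.25) and 1.49 in the rest of the bin, a ratio of 1.48. Input showed nearly the same ratio, 1.41, and H3K9ac 1.54. The other bins of the comparison class with 10 to 24 13HH3 tags gave 1.48 for 7G8 and 1.46 for input. The stretches were richer in GC than the rest of the bin, with 51.0% against 46.2% in the members. At this scale the 7G8 maximum could not be set apart from a local rise that all libraries share. Single stretches varied, as the Nrn1 and Fam49a stretches printed above held 1 of 7 and 3 of 17 7G8 tags of their bins.

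Tags on both strands made up the 13HH3 signal. The plus strand held 50.3% of the tags in the members, the weaker strand had a median of 12 tags per bin, and 1 member had under 5 tags on 1 strand. The most frequent distance between plus and minus tags was 182 bp in the members and 181 bp in the other comparison bins, and input in the members gave 180 bp, so this distance is not particular to 13HH3. Before repeats were dropped, 3.81% of the 13HH3 tags in the members repeated a position and strand (3.69 to 3.94), against 2.36% in the other comparison bins and 6.15% in the bins with both marks. The members were chosen after repeats were dropped, so these 13HH3 values are a description only.

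The members were richer in GC than most bins with little H3K9ac, as were the bins next to the limits. Their median was 47% (quartiles 45.1 and 49.1, range 37.3 to 63.3), against 42.2% in the other bins of the comparison class, 39.5% in all bins within the limits and 48.7% in the bins with both marks. The median was 46% just below the 13HH3 minimum, 47.3% just above the H3K9ac maximum and 48.2% just above the input maximum. A GC content of 44% or more was found in 85.5% of the members (84.3 to 86.7) and in 33.8% of the other comparison bins. The 13HH3 library as a whole followed GC content. In the comparison class, members included, the mean 13HH3 count rose from 7.94 tags at 38% to 41% GC to 14.6 tags at 50% to 55%, whereas 7G8 went from 10.3 to 11.8 tags, H3K9ac from 9.48 to 10 tags and input from 7.82 to 8.36 tags. Below 38% GC 13HH3 was at 5.7 and 7G8 at 8.87 tags, and above 55% they were at 13.5 and 9.83 tags. From 38% to 55% the share of bins that were members rose as well, from 0.0683% to 6.36%. How much of the 13HH3 count comes with base composition was not tested.

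Within the comparison class, the 7G8 difference was also present between bins of like GC content. At 44% to 47% GC the 767 members held 16.7 7G8 tags (16.4 to 17.0) and the 47076 other bins 11.4 tags, a ratio of 1.46. At 41% to 44% the ratio was 1.56 and at 50% to 55% it was 1.43. The members' 7G8 count itself barely moved with GC content up to 55%, from 16.8 tags at 38% to 41% to 16.4 tags at 50% to 55% (Pearson r between 7G8 and GC content -0.0406 over the 3257 members). At 55% or more the 22 members held 15 tags (13.4 to 16.7) and the other bins 9.57. In no GC class with at least 10 members did the intervals of members and other bins overlap.

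**Figure D3:**
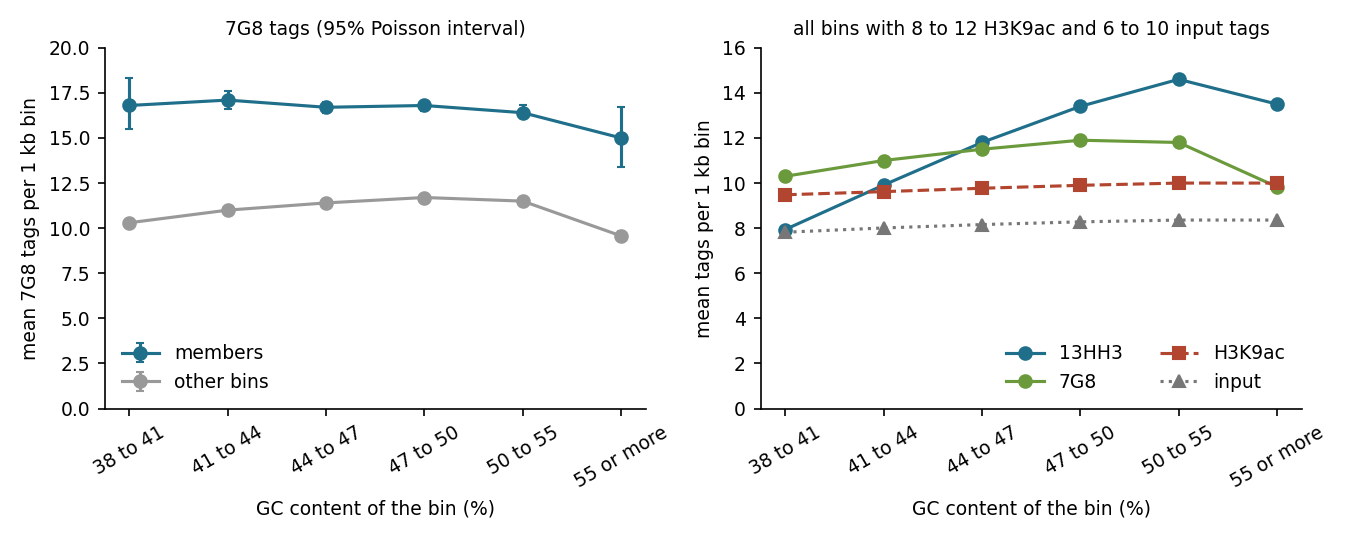
Left, mean 7G8 tags per 1 kb bin (vertical axis, 95% exact Poisson intervals) by GC content class (horizontal axis) for members and other bins of the comparison class. Right, mean tags of the 4 libraries over all bins of that class. From 38% to 55% GC the members stayed at 16.4 to 17.1 tags and the other bins at 10.3 to 11.7, and 13HH3 rose with GC content more than 7G8 did. At 55% GC or more the members were at 15 and the other bins at 9.57. Bins below 38% GC are not drawn.

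The members were richer in GC and in CpG than the other comparison bins and poorer in both than the bins with both marks. They held a median of 10 CpGs per kb, against 7 in the other comparison bins and 14 in the bins with both marks. Within the comparison class at 44% to 50% GC the medians were closer, 10.5 in members and 9 in the other bins. The observed over expected CpG ratio was 0.188 in the members, 0.164 in the other comparison bins and 0.248 in the bins with both marks. None of the 3257 members had a ratio of 0.6 or more with 50% GC or more, the kind of values that mark CpG islands (exact upper limit 0.113%). Such values were as rare in the background, with 0.0438% of all bins within the limits and 0.0105% of the other comparison bins, and were found in 10.4% of the bins with both marks. A median of 14.4% of the bases lay in repeated sequence, measured as 16-mers with at least 50 copies in the genome, against 18.7% in the other comparison bins, 24.5% in all bins within the limits and 13.8% in the bins with both marks. More than 50% of bases were repeated in 77 members (2.36%). Short tandem runs, of units of up to 6 bases over at least 20 bp, occurred in 31.1% of members and 29.3% of the other comparison bins. Within the comparison class, in bins with under 10% of bases in repeats, members held 17.6 7G8 tags and other bins 12 tags. In those with 50% or more the values were 15 and 8.68 tags, so the difference was present at both ends.

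Letters of 9 motifs, among them those of factors known in mES cells, were counted in the bins on both strands, and a match is not a bound site. Shares are given for bins with 44% to 50% GC in the comparison class, 1578 members and 67453 other bins, since GC content alone moves them. The octamer ATGCAAAT, the element read by Oct4, occurred in 6.27% of these members (5.13 to 7.59) and 5.08% of the other bins. The element TCAAGGTCA, read by Esrrb, occurred in 3.61% (2.75 to 4.65) and 2.7%. The Sox core CATTGTT occurred in 16% and 14.2%, the Klf element CCACACCC in 9.44% and 8.8%, and the E-box CACGTG in 13.6% and 12.9%. For AP-1 (TGANTCA) the shares were 27.6% and 26.9%, for the GC box (GGGCGG) 12.8% and 11.6%, for runs of 6 CA units 18% and 18.3%, and for runs of 6 AG units 9.76% and 9.66%. For all 9 motifs the intervals of members and other bins overlapped at this GC content. Over the whole comparison class, where GC content differs, the order turned for the octamer, the Sox core, AP-1 and the CA runs. The octamer was in 5.83% of members (4.91 to 6.86) and 6.92% of the other bins. The Sox core was in 15.7% (14.3 to 17.3) and 18%. The Esrrb element stayed higher in members, with 3.51% (2.8 to 4.34) and 2.42%. So did the Klf element (9.77% and 6.27%) and the GC box (13.7% and 7.34%). The same held for the E-box (13.8% and 10.2%) and the AG runs (9.64% and 6.98%).

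Most members lay inside genes or far from them, and few lay at gene starts. By the base at their centre, 1831 members (56.2%, 54.5 to 57.9) were intronic, against 42.1% of the other comparison bins, 30.1% of all bins within the limits and 53.9% of the bins with both marks. A further 1217 (37.4%, 35.7 to 39.0) were distal intergenic, against 49.9% of the other comparison bins and 28.2% of the bins with both marks. Promoters, the 2 kb upstream of a transcription start site (TSS), held 18 members (0.553%, 0.328 to 0.872), coding exons 37 (1.14%) and untranslated exons 41 (1.26%), against 1.27%, 1.17% and 1.63% of the other comparison bins. Within 2 kb of the TSS of a protein-coding gene, on either side, lay 42 members (1.29%, 0.931 to 1.74). The share was 1.51% of all bins within the limits, which lies in that interval. It was 2.09% of the other comparison bins and 16.3% of the bins with both marks. With every transcript start, or with genes of every type, 3.65% or 3.29% of members lay that near, and the share of other bins was not computed for these. The median distance to the nearest protein-coding TSS was 65.2 kb in members, 54.3 kb in the other comparison bins and 22.6 kb in the bins with both marks. It was 112 kb in all bins within the limits and 67 kb in all bins with a tag, so its direction depended on the bins compared.

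Within the comparison class, the share of introns was higher in members at every GC content with at least 100 members. At 41% to 44% GC 62.5% of members (56.4 to 68.3) and 41.3% of the other comparison bins were intronic, and at 50% to 55% GC 58.4% (53.5 to 63.1) and 43.3%. Over all members, the 7G8 count depended little on the place. Intronic members held 16.3 7G8 tags (16.1 to 16.5), distal intergenic members 16.6 tags (16.4 to 16.9) and promoter members 15.7 tags (13.9 to 17.6, n = 18). Members in coding exons were lower, with 13.5 tags (12.3 to 14.7, n = 37), and had a GC content of 49.1%.

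**Figure D4:**
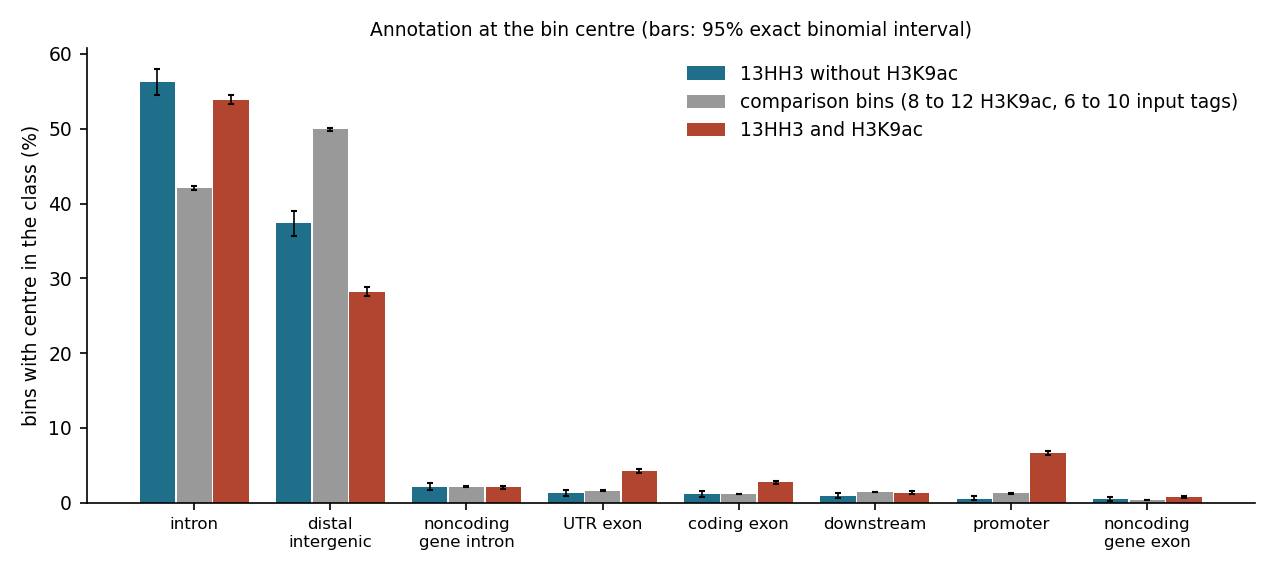
Share of bins (vertical axis, in %, 95% exact binomial intervals) by the annotation at the bin centre (horizontal axis), for members, the other bins of the comparison class and bins with both marks. Introns held 56.2% of members and promoters 0.553%, whereas promoters held 6.64% of bins with both marks.

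The genes that held members were many. Protein-coding genes covered the centre of 1915 members (58.8%), spread over 1123 genes. They covered the centre of 98925 of the 219262 other comparison bins (45.1%), spread over 11511 genes. Taken over bins, so that a gene counts once for each bin in it, the median length of the gene was 208 kb for members and 149 kb for the other comparison bins. Position along the gene was close to even, as 52.7% of these members lay in the 5′ part up to the middle of the gene and 7.73% in the first 10%, against 48% and 8.23% of the other comparison bins in genes. On chromosomes other than 18, 331 genes held at least 2 members and 17 held at least 8. Some of the genes with the most members are named next, a choice made after their counts were seen, and set against 2.38 members per 1000 bins within the limits over all chromosomes used.

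Auts2, a neurodevelopmental gene whose product joins a Polycomb complex, spans 1106 kb of chromosome 5 and held the most, 14 members in 601 bins within the limits. The members of Auts2 held 9 to 29 7G8 tags with a mean of 16.4, and the other comparison bins of the gene 12.5. Wwox, an oxidoreductase gene at a fragile site, held 11 members with a mean of 18.1 7G8 tags, against 10.9 in its other comparison bins. Ext1, a glycosyltransferase of heparan sulphate synthesis, held 10 members with 16.3 7G8 tags. The densest of the genes named here was Gli2, a transcription factor of the Hedgehog pathway, where 8 of only 28 bins within the limits were members, with 17.4 7G8 tags (lowest 10, highest 22) against 13 in the other 8 comparison bins. Pard3, a cell polarity gene, gave 13.2 7G8 tags in its 9 members and 12.5 in its other comparison bins, so the difference was small in that gene.

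Nearest genes were compared with lists defined by symbol, mostly by its prefix. A prefix also takes in other genes, as Grip1 (1 member) among glutamate and GABA receptors and Kcnrg (2 members) among potassium channels. Olfactory receptor genes were nearest to 6 members (0.184%, 0.0676 to 0.401), against 0.873% of the other comparison bins and 1.69% of all bins within the limits. Vomeronasal receptor genes were nearest to 4 members (0.123%, against 0.347%), cytochrome P450 genes to 2 (0.0614%, against 0.292%) and protocadherins to 3 (0.0921%, against 0.244%). The member interval lay below the comparison share for olfactory, vomeronasal and cytochrome P450 genes and included it for protocadherins. These shares rest on 2 to 6 members each and were not compared at like GC content, which was higher in the members. How much of the difference comes with base composition was not tested. Histone genes were nearest to 0 of the 3257 members (exact upper limit 0.113%), against 0.026%. Genes with the Zfp prefix were nearest to 54 members (1.66%, 1.25 to 2.16, against 1.38%), of which 10 belonged to Zfp36l1, whose product binds mRNA. Potassium channels (21), G protein-coupled receptors (20), ribosomal proteins and genes sharing their prefix (18), collagens (11), glutamate and GABA receptors (10), keratins (3) and Hox genes (1) had shares of 0.0307% to 0.645%, and the comparison share lay inside the member interval for all of these. This depended on the bins compared. The shares of all bins within the limits lay above the member interval for potassium channels (1.08%), glutamate and GABA receptors (1.01%) and protocadherins (1.04%). For the Zfp prefix that share (1.14%) lay below the member interval.

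Genes of the pluripotency network were nearest to 10 members (0.307%, 0.147 to 0.564, against 0.254% of the other comparison bins), which belonged to 6 of the 23 listed genes found in the annotation. Sox2, a core pluripotency factor, had 4 of them, between 75.6 kb and 348 kb from its TSS. The nearest, chr3:34624001-34625000, held 26 tags of 13HH3, 10 of H3K9ac, 6 of input and 9 of 7G8. The farthest, chr3:34896001-34897000, held 30, 11, 7 and 21 tags in the same order and was the one of the 4 with 7G8 at least 2-fold over input (log2 ratio 1.28, exact interval -0.01 to 2.76). Klf5 had 2 members, 168 kb and 283 kb downstream, with 22 and 16 7G8 tags. Klf4, Tbx3 and Zfp42, the gene of the marker Rex1, had 1 each, 191 kb, 346 kb and 41.9 kb from the TSS, with 17, 14 and 10 7G8 tags.

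Esrrb, an orphan nuclear receptor of the same network, had a member in its promoter, at chr12:87700001-87701000 and 1.57 kb upstream of its TSS. That bin held 33 tags of 13HH3, 7 of H3K9ac, 9 of input and 15 of 7G8, and its log2 ratio of 7G8 over input was 0.43 (-0.85 to 1.81), within counting error of no difference. Immediate early genes were nearest to 7 members (0.215%, 0.0865 to 0.442, against 0.133%). Egr3, a transcription factor gene, had 4 of them, 15.8 kb to 114 kb upstream of its TSS. Myc, the gene of an oncogenic transcription factor, had 2, 124 kb upstream and 200 kb downstream. Dusp1, the gene of a MAP kinase phosphatase, had 1, 17 kb upstream. The 2 Myc members held 24 and 19 7G8 tags, and the 4 Egr3 members 11 to 16.

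The 10 members with the most 13HH3 tags held 43 to 49 tags and differed widely in 7G8. The first, chr9:46898001-46899000, lies 440 kb from the TSS of the cell adhesion gene Cadm1 and held 49 tags of 13HH3, 11 of H3K9ac, 9 of input and 27 of 7G8, a log2 ratio of 7G8 over input of 1.28 (0.15 to 2.55). At chr16:57434001-57435000, an intron of 2610528E23Rik, the counts were 47, 9, 6 and 20 tags and the log2 ratio was 1.43 (0.06 to 3.04). At chr12:71955001-71956000, an intron of Frmd6, they were 45, 12, 7 and 26 tags and the log2 ratio was 1.59 (0.35 to 3.04). These were the 3 of the 10 whose interval lay above 0. An intron of Fam49a also passed the 2-fold call, with 17 7G8 tags over 5 of input, but its interval (-0.04 to 3.26) included 0. Of the remaining 6, an intron of Fars2 at chr13:36537001-36538000 had 44 tags of 13HH3 and 7 of 7G8 over 8 of input, a log2 ratio of -0.50 (-2.19 to 1.16).
That bin was 1 of 10 members inside Fars2, a mitochondrial tRNA synthetase gene, whose members averaged 18 7G8 tags, so it was low among its neighbours. The other 5 lay in an intron of the ubiquitin ligase gene Rnf144a, in an intron of Dlg5, in an intron of a noncoding gene near Bcl2l11, and in intergenic sequence near Ppp2r5a and Gm826, with 19, 21, 17, 10 and 19 7G8 tags.

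The 5 members with the most 7G8 tags were not those with the most 13HH3. They held 35 to 40 7G8 tags and 25 to 33 of 13HH3. As extremes chosen by 7G8 under a limit on input they had to pass the 2-fold call, and their ratios are a description. The highest, chr2:116386001-116387000, is distal intergenic and held 25 tags of 13HH3, 9 of H3K9ac, 10 of input and 40 of 7G8 (log2 ratio 1.70, 0.67 to 2.86), with 39.7% of its bases repeated and no CpG. At chr3:35337001-35338000 the counts were 33, 11, 10 and 38 tags. Introns of Tmem132c and Tnik, the latter a kinase gene, held 37 and 35 7G8 tags. The last, chr7:46610001-46611000, had 35 7G8 tags over 2 of input, and a wide interval (log2 ratio 3.83, 1.86 to 6.93).

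Few members near gene starts were called by 7G8, as few lay there. Of the 42 members within 2 kb of a protein-coding TSS, 7 (16.7%, 6.97 to 31.4) were at least 2-fold over input, beside 8.13% of all bins within the limits at such places. Within the comparison class these shares were 15.2% (5 of 33) for members and 1.44% for the other bins near a TSS. At least 20 7G8 tags were also found in 7 of the 42, beside 1.05% of all bins within the limits near a TSS, and in 7 of the 33 (21.2%), beside 2.38% of the other comparison bins there. The 10 members within 2 kb of a protein-coding TSS with the most 13HH3 tags (29 to 34) held 11 to 19 7G8 tags over 6 to 10 of input, and none reached 2-fold over input once the pseudocount was added. They lay at Ighg2c, Gm4934, Slc25a31, Esrrb, Plscr2, Tmem8c, Ciita, Gm5356, Pdcd4 and Nostrin. Among these genes, Ighg2c encodes an immunoglobulin heavy chain constant region, Ciita the activator of MHC class II genes and Pdcd4 an inhibitor of translation. The bin with the highest log2 ratio, at Slc25a31, an ADP/ATP carrier gene, held 33 tags of 13HH3, 8 of H3K9ac, 6 of input and 15 of 7G8. Its log2 ratio was 1.02 (-0.43 to 2.67) without the pseudocount and its fold 1.78 with it.

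The 3 members lowest in H3K9ac differed in 7G8. The member without any H3K9ac tag, chr15:64060001-64061000 in an intron of Asap1, held 28 tags of 13HH3, 10 of input and 13 of 7G8, a log2 ratio of 0.07 (-1.23 to 1.42). Of the next 2, each with 1 H3K9ac tag, the intergenic bin chr4:83780001-83781000, whose nearest gene is Bnc2, had 8 7G8 tags over 10 of input, and an intron of Cpeb1 had 18 over 7 (log2 ratio 1.06, -0.27 to 2.56), with 63.9% of its bases repeated.

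Members were mostly single bins, which follows in part from the choice, since an adjacent bin had to meet the same limits on 13HH3, H3K9ac and input. Run lengths of other bins were not computed. Of 3207 separate sites, 3157 were 1 bin and 50 were 2 adjacent bins, and none was longer. The strongest pair lay in an intron of Cadm1, at chr9:47407001-47409000, where the 2 bins held 38 and 42 tags of 13HH3 and 12 and 31 of 7G8. Pairs in introns of Arnt2, a partner of bHLH-PAS factors, and Dapk1, a kinase gene, held 23 and 19, and 22 and 16 7G8 tags. Within 10 kb of another member lay 425 members (13%), and the median distance to the closest was 100 kb.

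Some of the members lay near H3K9ac, more of them than of the other bins with little H3K9ac. At least 25 H3K9ac tags were found in an adjacent bin for 305 members (9.36%, 8.38 to 10.4), against 6.61% of the other comparison bins, 2.66% of all bins within the limits, 11% of all bins with a tag and 53.9% of the bins with both marks. Within 5 kb the shares were 30.5%, 24.8%, 11.1%, 24.9% and 74.4% in the same order. The 2262 members without such a bin within 5 kb held 16.6 7G8 tags (16.4 to 16.7), and the 305 next to one held 15.8 tags (15.4 to 16.3). In the comparison class, members and other bins without H3K9ac within 5 kb held 16.9 and 11 7G8 tags. The 7G8 difference was thus present away from H3K9ac too.

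The chromosomes differed in how many members they held. Per 1000 bins of the comparison class there were 17.8 members on chromosome 12 (192 of 10796) and 14.7 on chromosome 18, and 5.6 on chromosome 17 (34 of 6075) and 6.56 on chromosome 10. Chromosome 12 had the fewest input tags per Mb of sequenced bases, 6049, and chromosome 17 the most, 10839. The ratio of 13HH3 to input over the whole chromosome was 1.23 and 0.764 on these 2, and that of 7G8 1.24 and 0.736. Across the 19 chromosomes the rate of members went with the ratio of 13HH3 to input (Pearson r = 0.854, Spearman rho = 0.858, n = 19 chromosomes of the same libraries) and against input per Mb (r = -0.721, rho = -0.76). Both 13HH3 and input set which bins are members, so these values follow in part from the choice. With the ratio of 7G8 to input, where 7G8 was not used, r was 0.856 and rho 0.871. The ratio of H3K9ac to input moved the same way, with 1.14 on chromosome 12 and 0.819 on chromosome 17. With that ratio r was 0.579 and rho 0.589, so the direction was not particular to H3K14ac. Since input entered both the choice and these ratios, the level of a chromosome in the input library and the level of acetylation cannot be told apart here. The 7G8 mean of the members changed little, from 15.1 tags on chromosome 5 to 17.6 on chromosome 16, and was above that of the other comparison bins on all 19 chromosomes (9.9 to 11.3 tags).

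**Figure D5:**
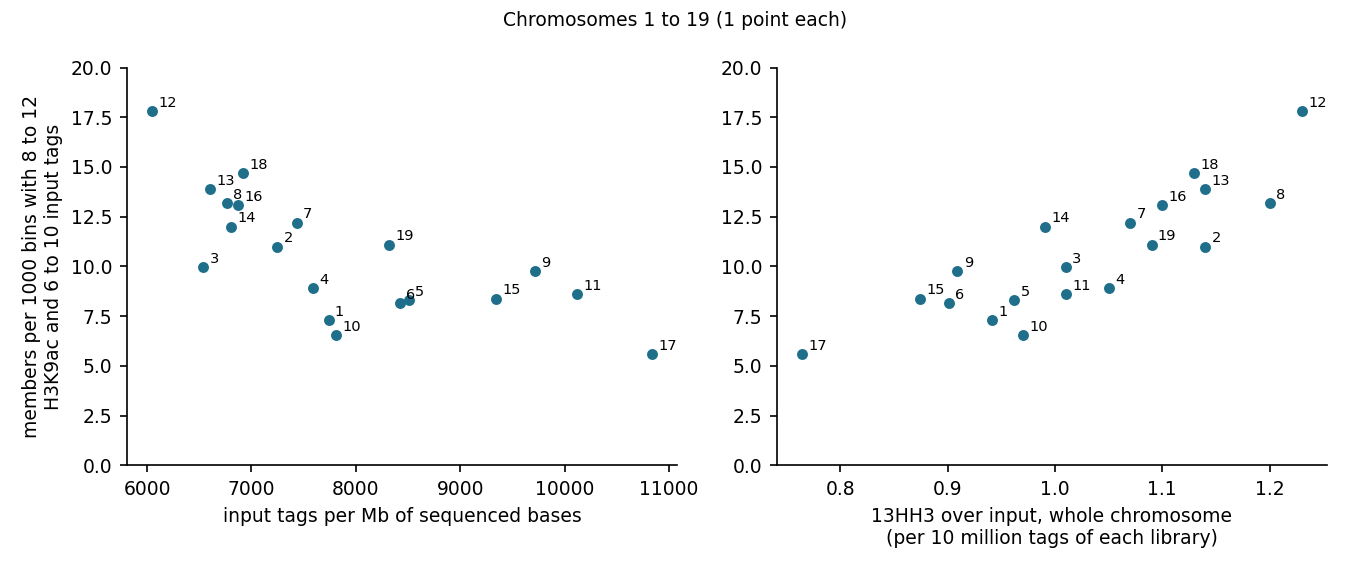
Members per 1000 bins of the comparison class (vertical axes) for chromosomes 1 to 19, 1 point each, against input tags per Mb of sequenced bases (left) and against the ratio of 13HH3 to input over the whole chromosome, per 10000000 tags of each library (right). Input and 13HH3 were used in the choice. The rate was highest on chromosome 12 (17.8) and lowest on chromosome 17 (5.6), which had the fewest and the most input tags per Mb.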

How the data were processed

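Chromatin of mES cells was measured by ChIP-seq in 4 libraries. The authors mapped single-end reads of 36 bases to mm9 with ELAND, allowing 1 mismatch, and deposited 1 line per read with its position and strand and a score of 1, which was summed here as a count of 1 tag per line. Nothing was normalised. No position and strand repeats in the H3K9ac, 7G8 and input libraries, so these were filtered earlier, by a step not given in the sources used here, while 3.3% of the 13HH3 tags were repeats and were dropped. Tags were counted in bins of 1000 bp after a shift of 100 bp from the 5′ end towards the 3′ side, at the tag numbers given in the report. The members and lists were chosen with earlier results of these data known. Genome sequence and GENCODE annotation (version M1, 22367 protein-coding genes) were of the same build. The genome held no masked bases, so repeats were measured by 16-mers. Input was scaled by all tags. Named members were the 10 with most 13HH3, 5 with most 7G8, 5 with most 13HH3 among those without 7G8 over input, 10 near a TSS, 3 with least H3K9ac and 3 longest runs, and those on chromosome 18 were counted but not named. Shares carry exact (Clopper-Pearson) binomial, means exact Poisson and ratios exact conditional intervals of 95%. The counting and interval functions were tested on simulated data. Python 3.11.15, NumPy 2.4.6, SciPy 1.17.1, pandas 2.3.3, numba 0.67.0 and matplotlib 3.10.9 were used. Alternatives concerned tag shift, repeats, bins, limits, pseudocount, fold, annotation and repeat measure.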

Additional observations from a re-analysis of the deposited data

How the results depend on the processing

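With 1 library per antibody, no replicate could be left out and no paired analysis was possible because no group had a second sample. Depth limits single bins, since at 7 to 10 input tags the interval of a ratio spans several-fold. The limits on tags moved the number of members most. A 13HH3 minimum of 30 tags left 693 members, with a 2-fold 7G8 share of 25.0%, a median of 17 7G8 tags, 47.8% GC and 13.2% of bases in repeats. An H3K9ac maximum of 8 tags left 910 (17.8%, 15 tags, 0.879% within 2 kb of a TSS, 46.8% GC) and one of 6 tags 343 (15.7%, 15 tags, 0.583%, 46.5% GC). An input maximum of 7 tags left 1181 (44.6%, 0.847% near a TSS, 46.6% GC, 15.9% repeats), and limits per 10000000 tags 1753 (34.5%, 46.7% GC, 15.3% repeats). The 2-fold share was 19.2% with tags not moved, 18.5% with bins starting 500 bp later, 25.1% and 12.7% with pseudocounts of 0.5 and 2, and 50.5% and 3.25% when called at 1.5-fold and 3-fold, where the members of the comparison class gave 18.9%, 8.32%, 46% and 0.729% and its other bins 3.03%, 0.776%, 13.1% and 0.0237% under the last 4 settings. No such share of other bins was computed for the input maximum of 7 tags, which also limits the denominator of the ratio. Counting every transcript start or genes of every type put 3.65% or 3.29% of members near a TSS. With 16-mers of 200 or more copies 7.3% of bases were repeated. Chosen after seeing the data, the members of the comparison class gave a 2-fold share of 14.3%, and those without H3K9ac within 5 kb had 46.8% GC and 13.7% repeats. The other 51 of 87 values moved by less than their interval or 1.5 times. The ratio of mean 7G8 tags between members and other bins of the comparison class stayed at 1.54 to 1.56 with every 13HH3 tag kept, tags moved 75 bp or not moved, or bins starting 500 bp later.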

Other observations

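The same limits on chromosomes X and Y found 3 bins, all on X, where all 4 libraries had fewer tags per bin than on chromosomes 1 to 19. This came to 0.0249 members per 1000 bins within the limits, against 2.38 on chromosomes 1 to 19. Bins of chromosome X with a tag held 3.05 tags of 13HH3, 3.49 of H3K9ac, 3.99 of 7G8 and 4.35 of input on average, against 9.21, 9.86, 10.1 and 8.13 on chromosomes 1 to 19. The input on chromosome X was nearer to its level elsewhere than the 3 ChIP libraries were. A limit of 25 tags is therefore a stricter one on chromosome X. The number of copies of chromosome X in the cells used was not tested.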
